A study of Mus musculus and synthetic construct with 30 samples.

Results

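The genes *Gm26825*, *Duxbl1*, *Tmem254a*, *Tmem254b* and *Ncoa4* changed level widely between libraries of the RNA-seq data, some of them down to 0, and each is described below in every library. These 5 of the 26759 genes in each RNA-seq file were found by symbol. They had been chosen on their measured values in these libraries, so their levels and differences are given as a description with no test. The word off stands below for less than 1 expected count in a library and on for 10 or more, where an expected count is the number of reads that RSEM assigned to a gene, including fractions of reads that fit several genes. Levels are in TPM, which scales the count of a gene by the length of its transcripts and by the depth of the library, so that levels of different genes can be set side by side.

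The study asked which genes respond when the body of the lincRNA gene *Peril* is removed, and 16 RNA-seq libraries of poly(A) RNA were used here. The mice and cells carried a mixed C57BL/6J/129S6 background after backcrossing (N3-C57BL/6J, no Neo), and the knockout (KO) allele Periltm1.1Vlcg holds *LacZ* in place of the *Peril* gene body, while wild-type (WT) samples carry the intact gene. Mouse embryonic stem cells (mESC) were 3 WT wells of clone 4 and 3 KO wells of clone 6, all male, grown in 2i medium on feeder fibroblasts. As each genotype is 1 clone, the wells measure the spread between wells only, and clone and genotype cannot be told apart. The study's sample sheet gives the KO wells a later passage number than the WT wells, so passage cannot be told apart from genotype either. Kidneys came from litter 43 at E14.5, with WT embryos 1 (male), 3 (female) and 8 (male) and KO embryos 7 (male), 9 (female) and 10 (female). Ganglionic eminence with olfactory bulb (GE/OB) came from litter 46 at E14.5, with WT embryos 1 and 3, both male, and KO embryos 2 and 7, both female, which leaves no way to separate genotype from sex in that tissue.

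Processed pseudogenes are copies of an mRNA that were written back into the genome, and they often differ from their parent gene at few bases. Where copies are alike, a short read fits each of them, and RSEM divides such reads among the copies by an estimate made anew in each library. *Hspa8* encodes a constitutive chaperone of the heat shock 70 family, and *Gm26825* is a lincRNA on the opposite strand of an *Hspa8* pseudogene. *Ncoa4* encodes the receptor that carries ferritin to the lysosome by autophagy, and it was first described as a coactivator of nuclear receptors. *Duxbl* genes encode double homeobox transcription factors, a family linked to cleavage stage embryos, and *Tmem254* encodes a small membrane protein. In bulk tissue, fewer cells of a type and less RNA per cell cannot be told apart.

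Libraries held 17544707 to 45924887 expected counts. *LacZ* reached 69.6 to 73.7 TPM in KO mESC and 44.4 and 45.8 TPM in KO GE/OB, and at most 0.1 TPM in the WT libraries of both. In kidney, *LacZ* was at most 0.47 TPM in either genotype and *Peril* was listed at 0, so neither gene checks the kidney labels. In mESC, *Peril* was at 0.33 to 0.57 TPM in WT and 0.16 to 0.24 TPM in KO wells. The 8 mESC markers summed to at least 8632 TPM in mESC and at most 32.4 TPM elsewhere, the 8 kidney markers to at least 372 TPM in kidney and at most 3.26 TPM elsewhere, and the 9 GE/OB markers to at least 1206 TPM in GE/OB and at most 4.71 TPM elsewhere. Between the genotypes, the quasi-likelihood test of edgeR called 1 of the 8 mESC markers in mESC. It called no kidney marker in kidney and no GE/OB marker in GE/OB. Among markers of other cells, 12 erythroid genes summed to 9335 to 15325 TPM in WT and 7084 to 10425 TPM in KO kidney and to 3216 to 3845 TPM in GE/OB, and 7 genes of cortical excitatory neurons to 740 to 773 TPM in WT and 638 to 778 TPM in KO GE/OB. The 8 feeder fibroblast genes summed to 3.01 to 4.05 TPM in WT and 1.18 to 2.12 TPM in KO mESC, and 2 of them were called between the genotypes by the quasi-likelihood test of edgeR. The 7 endothelial genes summed to 61.4 to 62.1 TPM in WT and 53.8 to 58.9 TPM in KO mESC, with 2 of them called (*Kdr* higher and *Cldn5* lower in KO), to 117 to 129 TPM in WT and 130 to 185 TPM in KO kidney with 0 called, and to 73.7 to 84.8 TPM in GE/OB. The 8 macrophage genes summed to at most 0.06 TPM in mESC, to 36.1 to 46.5 TPM in WT and 29.0 to 38.8 TPM in KO kidney, and to 35.2 to 44.9 TPM in GE/OB. The part of these cells in the results below was not tested.

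The sequences show how close the copies are, and they are printed where a substitution lets a read tell one copy from the other. All positions are on mm10 (GRCm38), gene models are from GENCODE vM21 and the bases from the RefSeq genome of that build. *Gm26825* lies at chr5:5781530-5783636 on the plus strand, with 2 exons that make a transcript of 2026 bases. Its locus read on the minus strand matched the *Hspa8* transcript of 2394 bases at 2095 bases, with 9 substitutions, 5 of them in the *Hspa8* coding sequence, and 3 extra bases. Below are the fourth exon of *Hspa8* (chr9:40802739-40802891, plus strand, 153 coding bases) and the matching stretch of *Gm26825* as the reverse complement of its transcript (chr5:5782992-5783144, minus strand). Capitals mark the substituted bases C784T and C919T, counted from 1 at the 5′ end of the *Hspa8* transcript, with the *Hspa8* base first.
Hspa8: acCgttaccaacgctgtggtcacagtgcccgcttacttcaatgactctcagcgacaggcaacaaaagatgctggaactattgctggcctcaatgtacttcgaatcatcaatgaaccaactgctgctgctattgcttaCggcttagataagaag
Gm26825: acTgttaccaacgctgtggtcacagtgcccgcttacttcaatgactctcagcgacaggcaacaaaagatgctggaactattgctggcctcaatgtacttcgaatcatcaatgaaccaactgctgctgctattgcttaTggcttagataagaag

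The second pair is *Ncoa4* and *Gm6768*, a processed pseudogene at chr12:119260978-119262855 on the plus strand. *Ncoa4* lies at chr14:32159865-32179855 on the plus strand. The *Ncoa4* transcript of 3343 bases matched the chromosome 12 locus over chr12:119260933-119264274 at 3340 of 3342 bases, and both substitutions lie in the coding sequence and in the same exon. Shown are 246 coding bases within the eighth exon of *Ncoa4* (chr14:32176524-32176769, plus strand) and their copy in *Gm6768* (chr12:119262277-119262522, plus strand). Capitals mark A1358G and G1579A, counted from 1 at the 5′ end of the *Ncoa4* transcript, with the *Ncoa4* base first.
Ncoa4: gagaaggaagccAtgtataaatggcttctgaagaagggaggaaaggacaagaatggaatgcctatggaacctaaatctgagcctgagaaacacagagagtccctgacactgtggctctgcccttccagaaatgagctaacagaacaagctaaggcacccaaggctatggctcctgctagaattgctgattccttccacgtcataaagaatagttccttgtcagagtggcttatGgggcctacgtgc
Gm6768: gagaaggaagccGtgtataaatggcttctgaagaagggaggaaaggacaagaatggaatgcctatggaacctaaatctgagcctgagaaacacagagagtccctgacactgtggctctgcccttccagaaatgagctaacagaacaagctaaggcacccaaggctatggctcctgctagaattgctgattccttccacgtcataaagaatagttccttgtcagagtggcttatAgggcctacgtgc

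*Gm26825* switched between libraries of all 3 tissues, and it did so within genotypes as well as between them. In mESC it stood at 3.05, 2.47 and 2.70 TPM in the WT wells and at 1396, 1316 and 1344 TPM in the KO wells. The wells of each genotype were alike, and every KO well was above every WT well. On the log2(TPM + 0.1) scale the difference KO minus WT was 8.90 ± 0.089 (SE, n = 3 and 3), and the ratio of the means was 493.

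The kidneys did not follow genotype. WT embryos had 0.73, 681 and 669 TPM of *Gm26825*, in the order 1, 3 and 8. KO embryos had 723, 693 and 1.16 TPM, in the order 7, 9 and 10. One embryo of each genotype was therefore low and the other four were high, and the groups overlapped, with a log2 difference of 0.25 ± 4.43 (SE, n = 3 and 3). The sign of that difference turned with single embryos: it was -2.98 without WT 1, -1.29 without KO 7 and -1.26 without KO 9. Sex did not sort the embryos either, since the low kidneys were of 1 male and 1 female.

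In GE/OB, *Gm26825* was at 770 TPM in WT 1 and at 0 in WT 3. The KO embryos had 795 and 816 TPM. WT 3 alone was low, and the other WT embryo lay just below both KO embryos. The log2 difference was 6.52 ± 6.46 (SE, n = 2 and 2), 0.06 without WT 3 and 13.0 without WT 1. As WT 3 was at 0, the sizes 6.52 and 13.0 depend on the 0.1 added to each TPM.

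*Hspa8* moved the other way in the same libraries. It had 3787, 3749 and 3785 TPM in WT mESC and 2814, 2674 and 2702 TPM in KO mESC, so every KO well lay below every WT well. In kidney, the libraries low for *Gm26825* were the highest for *Hspa8*, with 2273 TPM in WT 1 and 2046 TPM in KO 10, against 1447, 1373, 1562 and 1492 TPM in WT 3, WT 8, KO 7 and KO 9. In GE/OB, *Hspa8* had 1707 and 2268 TPM in WT 1 and WT 3 and 1643 and 1760 TPM in KO 2 and KO 7, and the library without *Gm26825* was again the highest.

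The sum of both genes was far steadier than either. In mESC the highest library had 1.12 times the summed TPM of the lowest, while the same ratio was 565 for *Gm26825* alone and 1.42 for *Hspa8* alone. In kidney the ratio was 1.12 for the sum, 990 for *Gm26825* and 1.66 for *Hspa8*. The sum in GE/OB ran from 2268 to 2576 TPM, a ratio of 1.14. In mESC the sum still lay higher in every KO well (3990 to 4209 TPM) than in every WT well (3752 to 3790 TPM). Summed, the log2 difference KO minus WT was 0.11 ± 0.024 in mESC, 0.02 ± 0.064 in kidney and 0.08 ± 0.075 in GE/OB (SE).

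**Figure D1:**
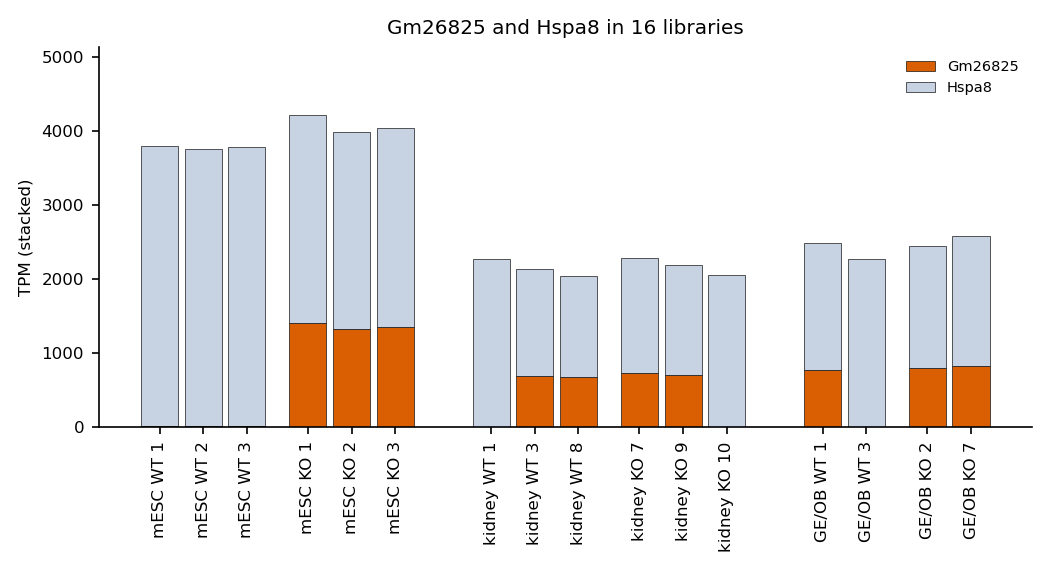
Stacked bars give the TPM of *Gm26825* (orange) and *Hspa8* (pale blue) in each of the 16 libraries, with 1 bar per library and no averaging. The orange part is a similar share of the bar in 10 libraries and nearly absent in 6, while bar heights within a tissue stay within 1.14 times of each other.

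As a share of the counts that *Gm26825* and *Hspa8* had together, *Gm26825* took either 28.9 to 31.4% (10 libraries) or at most 0.0706% (6 libraries), and no library lay between. The low state was found in 3 of 3 WT and 0 of 3 KO mESC wells, where each genotype is 1 clone. It was also found in kidney WT 1 and KO 10 and in GE/OB WT 3. The low state held 0 to 134 counts of *Gm26825* per library and the high state 14391 to 54046. Of the 1977 windows of 50 bases in the *Gm26825* transcript, 1617 (81.8%) also occur in an *Hspa8* transcript, in either direction. The kit, TruSeq RNA v2, does not mark strand, so reads of *Gm26825* and of the *Hspa8* pseudogene *Gm15459* on its other strand (chr5:5781615-5783555) cannot be told apart. *Gm15459* is not among the genes measured here.

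*Ncoa4* was lower in WT than in KO GE/OB, and the counts of *Ncoa4* and *Gm6768* were divided differently in different embryos. *Ncoa4* had 22.9 and 24.6 TPM in WT 1 and WT 3 and 83.0 and 53.3 TPM in KO 2 and KO 7. Both KO embryos lay above both WT embryos, with a log2 difference of 1.48 ± 0.32 (SE, n = 2 and 2). *Gm6768* had 58.7 and 60.5 TPM in the WT embryos, 0 in KO 2 and 31.0 TPM in KO 7, so its order was the reverse. The sum of the pair was 81.6, 85.1, 83.0 and 84.3 TPM in WT 1, WT 3, KO 2 and KO 7, within 1.04 times of each other. Its log2 difference was 0.01 ± 0.032 (SE).

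In kidney, *Ncoa4* had 73.2, 40.3 and 41.0 TPM in WT 1, 3 and 8, and 41.3, 45.5 and 43.9 TPM in KO 7, 9 and 10. *Gm6768* was at 0 in WT 1 and had 22.3 to 27.1 TPM in the other 5 embryos. WT 1 was the high kidney for *Ncoa4*, and the sum ran from 62.6 to 73.2 TPM, with WT 1 within 1.17 times of the lowest kidney. The log2 difference for *Ncoa4* was -0.18 ± 0.28 (SE, n = 3 and 3), and its sign turned both without WT 1 (0.10) and for the sum (0.06).

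In mESC, *Gm6768* was listed at 0 in all 6 wells. *Ncoa4* had 116, 120 and 118 TPM in WT and 110, 104 and 103 TPM in KO wells, a log2 difference of -0.16 ± 0.033 (SE, n = 3 and 3), and the groups did not overlap. Here the sum equals *Ncoa4* itself.

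**Figure D2:**
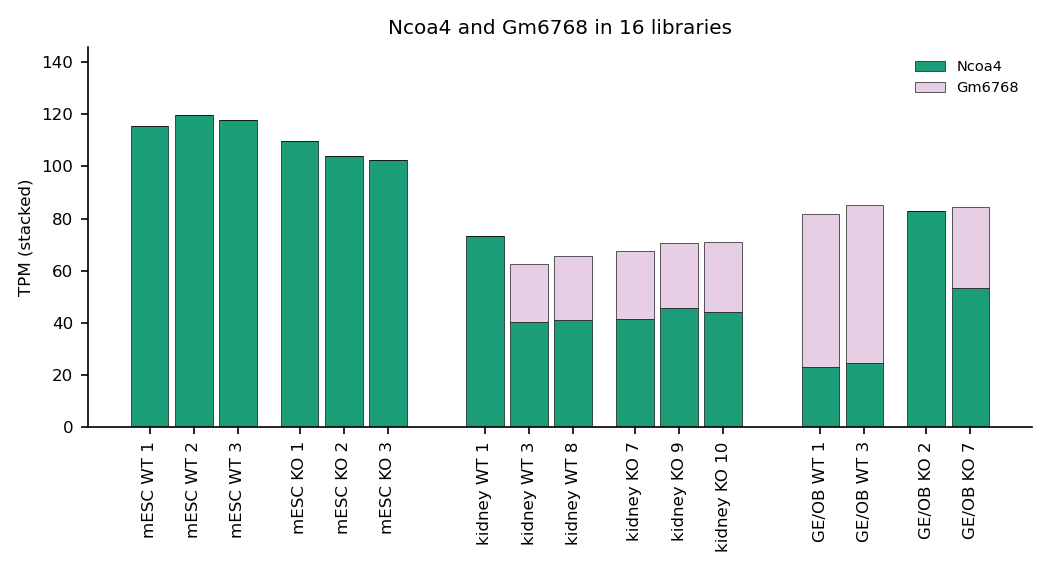
Stacked bars give the TPM of *Ncoa4* (green) and *Gm6768* (pale violet) in each of the 16 libraries. *Gm6768* is at 0 in the mESC wells, in kidney WT 1 and in GE/OB KO 2, and in GE/OB the 4 bars reach 81.6 to 85.1 TPM while the green part runs from 22.9 to 83.0 TPM.

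Shares of the joint counts fell into 3 ranges for *Ncoa4*. It took 100% in the 8 libraries with *Gm6768* at 0, 54.8 to 60.1% in the other 5 kidneys, 56.9% in GE/OB KO 7, and 18.6 and 17.3% in the WT GE/OB embryos. Of the windows of 50 bases in the 3343-base *Ncoa4* transcript, 96.9% also occur in the chromosome 12 locus, against 39.1% over all 7 *Ncoa4* transcripts in the files and the annotated *Gm6768*. The effective length of *Ncoa4*, the mean length of its transcripts weighted by their estimated share and shortened for fragment size, was 1834 and 1616 bases in the WT GE/OB embryos and 2407 to 2752 bases in all other libraries. *Gm6768* is 3339 bases long in the files and 1878 bases in GENCODE vM21, so the authors' annotation held a longer model. The states of the pairs were not the same states: among the 10 embryonic libraries, *Gm26825* was low and *Gm6768* was at 0 together only in kidney WT 1.

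*Tmem254a*, *Tmem254b* and *Duxbl1* lie in a block of chromosome 14 in which a stretch of genes is present in 3 copies. *Tmem254a* is at chr14:25923300-25927672, *Tmem254c* at chr14:26063919-26067355 and *Tmem254b* at chr14:26203369-26207041, all on the minus strand. *Duxbl1* is at chr14:25978577-25990088, *Duxbl2* at chr14:26118349-26129763 and *Duxbl3* at chr14:26257962-26269436, all on the plus strand. A *Tmem254b* transcript of 1447 bases and the *Tmem254c* transcript of 1211 bases match stretches of a *Tmem254a* transcript of 2147 bases without a substitution. The promoters of *Tmem254a* and *Tmem254c* as given by RefSeq, around the start of each gene, are identical over their 300 bases, and that of *Tmem254b* matches the *Tmem254a* promoter at all 284 bases that align. *Tmem254b* lies within the span of the homeobox gene *Cphx3*, on the opposite strand. In the search for shared windows on both strands, its transcripts shared windows with *Tmem254a* and *Tmem254c* only, and none with *Cphx3*.

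*Tmem254a* and *Tmem254b* had identical expected counts and effective lengths in 16 of 16 libraries, so they hold 1 measurement, not 2. All windows of 50 bases in *Tmem254b* (100%) occur in *Tmem254a*, and 84.6% of them also occur in *Tmem254c*. In GE/OB, *Tmem254a* stood at 1.91 and 3.42 TPM in WT 1 and WT 3 and at 12.5 and 9.95 TPM in KO 2 and KO 7. Both KO embryos were above both WT embryos, with a log2 difference of 2.08 ± 0.44 (SE, n = 2 and 2) and a ratio of means of 4.21. The counts behind these levels were 22.9 and 39.8 in WT and 237 and 117 in KO, so the gene was low in WT GE/OB but not off.

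Unlike *Gm26825* and *Ncoa4*, the *Tmem254* genes kept their difference in GE/OB when the copies were added together. *Tmem254c* had 8.21 and 5.88 TPM in WT and 14.6 and 16.5 TPM in KO embryos. The sum of the 3 copies was 12.03 and 12.72 TPM in WT and 39.7 and 36.4 TPM in KO, a log2 difference of 1.61 ± 0.073 (SE) and a ratio of means of 3.07. The WT embryos were alike, the KO embryos were alike, and the groups stood apart.

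In kidney, *Tmem254a* had 20.6, 15.1 and 11.1 TPM in WT 1, 3 and 8 and 14.1, 10.7 and 11.1 TPM in KO 7, 9 and 10. WT 1 was the highest and the groups overlapped (log2 difference -0.35 ± 0.28, SE, n = 3 and 3). In mESC it had 15.9, 14.7 and 14.2 TPM in WT and 11.3, 12.2 and 11.5 TPM in KO wells. All KO wells were below all WT wells, by -0.35 ± 0.059 on the log2 scale (SE, n = 3 and 3), which is opposite to GE/OB. *Tmem254c* was the highest of the 3 copies in every library, with 53.0 to 65.6 TPM in mESC and 31.5 to 74.2 TPM in kidney. For the sum, the log2 difference was -0.25 ± 0.021 in mESC and -0.31 ± 0.33 in kidney (SE).

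*Duxbl1* was off in both WT GE/OB embryos and on in every other library. It had 0 counts in WT 1 and WT 3, and 120 and 45.6 counts (4.70 and 2.75 TPM) in KO 2 and KO 7. No fold is given for *Duxbl1* itself, since RSEM assigned it 0 of the 113 and 106 counts that the 3 *Duxbl* genes held together in WT 1 and WT 3. Its copies were on in all 4 embryos: *Duxbl2* had 4.46 and 4.66 TPM in WT and 11.9 and 15.0 TPM in KO, and *Duxbl3* had 2.32 and 1.99 TPM in WT and 6.57 and 5.62 TPM in KO. The sum of the 3 genes was 6.78 and 6.65 TPM in WT and 23.1 and 23.4 TPM in KO, a log2 difference of 1.78 ± 0.016 (SE, n = 2 and 2) and a ratio of means of 3.46. All 3 copies were higher in both KO embryos than in both WT embryos.

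The kidney went the other way. *Duxbl1* had 3.45, 2.08 and 2.78 TPM in WT 1, 3 and 8 and 0.79, 0.43 and 1.15 TPM in KO 7, 9 and 10. All KO kidneys were below all WT kidneys, with a log2 difference of -1.75 ± 0.41 (SE, n = 3 and 3) and a WT mean that was 3.51 times the KO mean. These levels rest on 15.3 to 51.1 counts per KO kidney and 64.3 to 129 per WT kidney. For the sum of the copies the difference was -0.75 ± 0.26 (SE), with 7.19 to 12.7 TPM in WT and 5.32 to 6.53 TPM in KO.

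In mESC, *Duxbl1* had 2.59, 3.8 and 2.60 TPM in WT and 1.18, 3.0 and 2.41 TPM in KO wells. The groups overlapped (log2 difference -0.50 ± 0.42, SE, n = 3 and 3), while the sum of the copies did not, with 11.9 to 13.1 TPM in WT and 5.70 to 9.10 TPM in KO wells. *Duxbl2* ranged from 3.02 to 7.39 TPM and *Duxbl3* from 1.5 to 5.83 TPM over the 6 wells.

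The longest *Duxbl1* transcript of 2266 bases differs from those of *Duxbl2* and *Duxbl3* by the substitution C10G (*Duxbl1* base first, counted from its 5′ end), where they align, and by 10 bases that only *Duxbl1* has, at chr14:25983112-25983121 from transcript position 108, before the coding sequence. The transcripts of *Duxbl2* and *Duxbl3* are longer, at 2312 and 2336 bases, and their further bases lie outside the stretch that aligns. Of the 4814 windows of 50 bases in *Duxbl1*, 4502 (93.5%) occur in both of its copies. The windows that *Duxbl1* alone holds are few. The share of the joint counts given to *Duxbl1* ran from 0% in WT GE/OB to 44.7% in kidney over the 16 libraries.

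**Figure D3:**
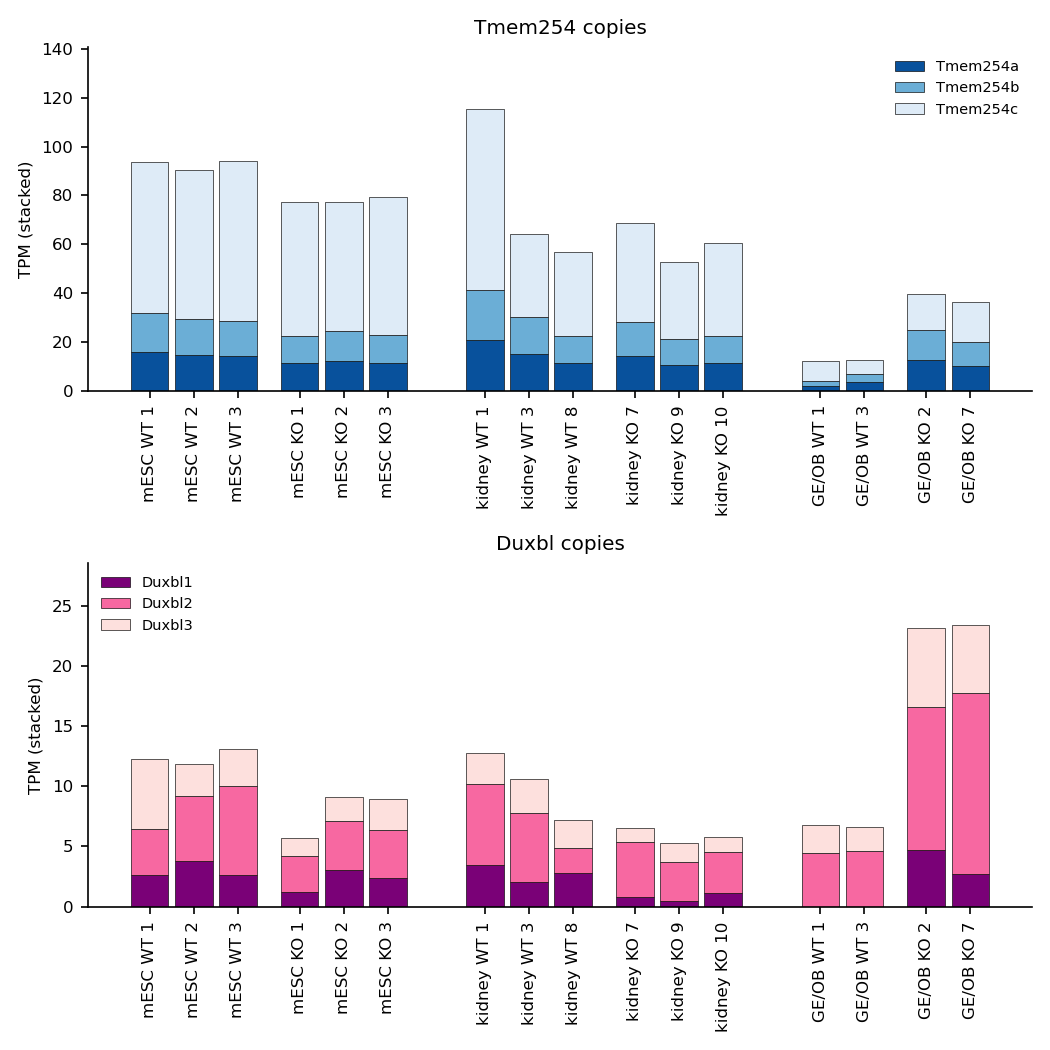
Stacked bars give the TPM of the 3 *Tmem254* copies (upper panel, blues) and the 3 *Duxbl* copies (lower panel, purple to pink) in each of the 16 libraries. In GE/OB the WT bars reach 12.03 and 12.72 TPM for *Tmem254* and 6.78 and 6.65 TPM for *Duxbl*, and the KO bars are about 3 times as tall, while in kidney and mESC the KO bars are not above the tallest WT bar.

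Counted over all members, on and off states in the same tissue were found for 0 of the 5 in mESC, 0 in kidney and 2 in GE/OB (*Gm26825* and *Duxbl1*). The share of all genes with 10 or more counts in a library of the tissue that were on in 1 library and off in another was 0.833% in mESC, 1.56% in kidney and 0.7% in GE/OB. *Gm26825* was low but above 1 count in mESC (95.8 to 134 counts in WT) and in kidney (35.0 and 71.8 counts), so the word off holds for it only in GE/OB WT 3. WT and KO levels did not overlap for 4 members in mESC (1 higher and 3 lower in KO), 1 in kidney (*Duxbl1*, lower in KO) and 5 in GE/OB (all higher in KO). Over all genes the share that did not overlap was 35.3% in mESC, 17.1% in kidney and 30.1% in GE/OB, and nothing is read from the members' counts, since these values chose them. With the copies summed, 5 of the 5 did not overlap in mESC, 1 in kidney (*Duxbl1*) and 3 in GE/OB (*Duxbl1*, *Tmem254a* and *Tmem254b*).

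**Figure D4:**
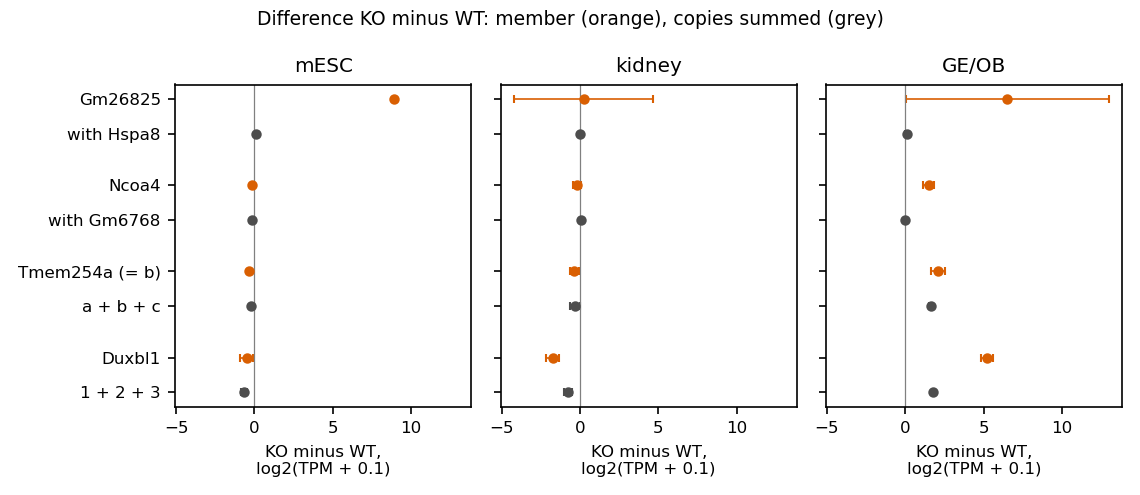
Points give the difference KO minus WT of the mean log2(TPM + 0.1) for each member (orange) and for the member with its copies summed (grey) in mESC, kidney and GE/OB, with bars of 1 SE over libraries (3 and 3, 3 and 3, 2 and 2). Summing moves *Gm26825* from 8.90 to 0.11 in mESC and *Ncoa4* from 1.48 to 0.01 in GE/OB, while the *Tmem254* and *Duxbl* sums stay at 1.61 and 1.78 in GE/OB.

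The other genes of the duplicated block were part of a fit across all genes (edgeR quasi-likelihood test, Benjamini-Hochberg adjustment, called at an adjusted p under 0.05). That fit called 6.86% of 17459 genes in mESC, 0.223% in kidney and 0.063% in GE/OB. At an unadjusted p under 0.05 the number was 3710, 1327 and 525 in that order. *Duxbl2*, *Duxbl3* and *Tmem254c* share 100%, 93.5% and 100% of their windows of 50 bases with other copies, the members among them, so their calls are not independent of the values that chose the members and their p is not given. Of the 9 other block genes, 2 were called lower in KO mESC and 0 higher, one of them being *Duxbl3*. The other, the homeobox gene *Cphx1*, fell by 4.16 on the log2 scale (SE 1.03, adjusted p = 0.0366), from 1.12 to 2.69 TPM in WT to 0 to 0.72 TPM in KO. Without WT 1, KO 1, KO 2 or KO 3 no block gene was called in mESC, and without WT 2 only *Duxbl3* was. Since 79.5% of the windows of *Cphx1* occur in *Cphx2* or *Cphx3*, which *Cphx* copy fell, and by how much, is uncertain. *Cphx2* had 0.5 to 0.82 TPM in WT and 0.72 to 1.18 TPM in KO mESC, while *Cphx3* was lower in every KO well. Of the block genes, DESeq2 called only *Duxbl3* in mESC.

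No block gene was called by edgeR in kidney (0 of 9, with 4 at an unadjusted p under 0.05 and 0 by DESeq2) or in GE/OB (0 of 9, with 3 at an unadjusted p under 0.05 and 0 by DESeq2). In GE/OB the 3 were *Duxbl2*, *Duxbl3* and *Tmem254c*, which share reads with the members, so that count is no separate support. *Duxbl3* and *Tmem254c* were also among the 4 in kidney. The median log2 fold change of the 9 was -0.41 in mESC, -0.48 in kidney and 1.38 in GE/OB, while all tested genes had medians of -0.03, 0 and 0.02. The GE/OB median is no separate support, since 3 of the 9 genes share reads with the members (*Duxbl2* 1.49, *Duxbl3* 1.38, *Tmem254c* 1.13). Another 4, *Cphx1*, *Cphx2*, *Cphx3* and *Plac9a*, had at most 4.56 counts in any GE/OB library. Of the remaining copies, *Plac9b*, which encodes a small secreted protein, had 35.5 to 75.1 TPM in WT and 29.0 to 57.1 TPM in KO kidney, and *Plac9a* had 0.75 to 6.98 and 1.26 to 4.24 TPM. Both *Plac9* copies were under 4 TPM in GE/OB. *Cphx3* had 5.39 to 6.89 TPM in WT and 4.18 to 5.09 TPM in KO mESC, and *Cphx2* stayed below 1.2 TPM in every library. *Anxa11*, an annexin gene at the edge of the block that is present once, had 83.7 to 89.5 TPM in WT and 73.0 to 74.5 TPM in KO mESC, and 0.71 to 0.79 TPM in GE/OB, where its log2 fold change was 0.04 (SE 0.47).

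Genes that start within 1 Mb of a member on chromosome 14 lie around the duplicated block and, apart from it, around *Ncoa4*. Of 53 tested, edgeR called 2 lower in mESC (*Duxbl3* and *Cphx1*), 1 lower in kidney and 0 in GE/OB. These calls stand beside the 6.86%, 0.223% and 0.063% of all genes called in the 3 tissues. At an unadjusted p under 0.05 the window held 12, 12 and 8 genes in mESC, kidney and GE/OB. DESeq2 called 6 in mESC (4 higher and 2 lower, with *Duxbl3* but not *Cphx1*), 1 in kidney and 0 in GE/OB. The window includes *Duxbl2*, *Duxbl3* and *Tmem254c*, which share reads with the members. Each of these had an unadjusted p under 0.05 in GE/OB, so the window's counts are no separate support. The kidney call was *Tnnc1*, the cardiac and slow muscle troponin C, which fell by 1.62 on the log2 scale (SE 0.26, adjusted p = 0.00805), from 6.42 to 8.50 TPM in WT to 2.00 to 3.62 TPM in KO. *Tnnc1* was no longer called without KO 10, which left 0 calls in the window. In mESC the window held 0 calls without KO 2 or KO 3 and 1 without WT 1 (*Gm9780*), WT 2 (*Duxbl3*) or KO 1 (*Timm23*). Around *Gm26825* on chromosome 5, a window chosen after its values were seen, 1 of 7 tested genes was called in mESC: *Steap2*, a metalloreductase gene, fell by 0.48 (SE 0.12, adjusted p = 0.0198). Its TPM overlapped, with 1.71 to 1.94 in WT and 1.14 to 2.02 in KO wells, its call ended without WT 1, WT 2, KO 1 or KO 3 (0 calls, or 1 of *Cdk14* without KO 3), and DESeq2 called 2 genes, *Steap2* and *Cdk14*. None was called there in kidney or in GE/OB by edgeR (1 and 0 at an unadjusted p under 0.05, and 0 by DESeq2 in both).

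For the themes of *Ncoa4*, lists of ferritin and iron handling genes, of autophagy genes, and of nuclear receptors and their coactivators were written by hand. Whether the listed genes act with *Ncoa4* in these samples was not tested. Their counts stand beside the 6.86%, 0.223% and 0.063% of all 17459 tested genes called in mESC, kidney and GE/OB. At an unadjusted p under 0.05, 3710, 1327 and 525 of all tested genes passed in that order. Of 19 tested iron genes, 1 rose and 1 fell in KO mESC: *Tfrc*, the transferrin receptor, rose by 0.26 on the log2 scale (SE 0.07, adjusted p = 0.0356) and *Steap3*, an endosomal ferrireductase gene, fell by 0.72 (SE 0.20, adjusted p = 0.0362). Neither iron gene was called without WT 1, WT 3, KO 2 or KO 3, and only 1 of them was without WT 2 or KO 1. In kidney 0 of 19 were called by edgeR (6 at an unadjusted p under 0.05), while DESeq2 called 2, *Tfrc* and *Fth1*, which encodes ferritin heavy chain. Without WT 1, edgeR called *Tfrc* in kidney as well. In GE/OB 0 of 19 were called by edgeR, 0 had an unadjusted p under 0.05 and DESeq2 called 0.

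Of 19 tested autophagy genes, 1 fell in KO mESC: *Gabarapl2*, which encodes a protein of the autophagosome membrane, had 113 to 121 TPM in WT and 86.1 to 91.8 TPM in KO wells (log2 fold change -0.42, SE 0.045, adjusted p = 2.5e-05). It was called without each mESC library in turn, and without KO 1 the list held 3 calls. No autophagy gene was called by edgeR in kidney or in GE/OB (2 and 0 at an unadjusted p under 0.05, and 0 by DESeq2 in both). Of 16 tested nuclear receptor and coactivator genes, 3 fell in KO mESC. *Rarg*, a retinoic acid receptor gene, fell by 0.53 (SE 0.086, adjusted p = 0.00111), *Nr3c1*, the glucocorticoid receptor gene, by 0.47 (SE 0.092, adjusted p = 0.00508) and *Ncoa3*, a coactivator gene, by 0.19 (SE 0.043, adjusted p = 0.0131). The *Ncoa3* call ended without WT 1, WT 3, KO 2 or KO 3, and the calls of *Rarg* and *Nr3c1* remained without each library in turn. In kidney and GE/OB 0 of 16 were called by edgeR (2 and 0 at an unadjusted p under 0.05, and 0 by DESeq2 in both).

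For *Duxbl1*, a list of double homeobox and cleavage stage genes was taken. Only 2 of the 24 in the files passed the filter on low counts, *Zfp352* and *Obox6*, and edgeR called neither in any tissue, with 0 at an unadjusted p under 0.05 and 0 by DESeq2.

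Genes with the most similar pattern were ranked by Pearson's r of log2(TPM + 0.1) over the 16 libraries among 17486 genes, as a description over libraries that share tissue, litter and clone. For *Gm26825* they were *Gm9008* (0.92), *Gm10073* (0.81), *Sp140* (0.74), *R3hcc1l* (0.74) and *Glipr1* (0.73). *Gm9008*, on chromosome 6, had 0 to 0.27 TPM in the 6 libraries low for *Gm26825* and 5.02 to 8.93 TPM in the other ten, so its values divided the libraries in the same way. *Sp140*, a nuclear body gene, overlapped between them, with 0 to 0.62 and 0.43 to 2.91 TPM. For *Duxbl1* the list was *Gm12166* (0.90), *Tmem254a* and *Tmem254b* (0.87 each), *Lsm4* (0.76) and *Ncoa4* (0.75). For *Tmem254a*, beside *Tmem254b* (1), it was *Gm12166* (0.92), *Duxbl1* (0.87), *Chrnb1* (0.87) and *Trdmt1* (0.86), and *Tmem254b* gave the same genes. *Gm12166*, on chromosome 11, was also at 0 in both WT GE/OB embryos, and it had 2.63 and 1.93 TPM in the KO embryos and 0.91 to 3.73 TPM in kidney and mESC. For *Ncoa4* they were *Prr19* (0.93), *Gm15024* (0.92), *Casz1* (0.91), *2310002J15Rik* (0.91) and *Arid5a* (0.91), with *Gm6768* not among them.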

How the data were processed

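RNA-seq reads of 16 libraries (6 mESC, 6 kidney, 4 GE/OB) were aligned by the authors to mm10 and quantified with RSEM and bowtie2. The deposited files hold, per gene, an expected count, which need not be whole, and TPM, both as given by the authors, with an effective length in bases. MPRA and Hi-C data of the series were not analysed here. Groups follow the labels. The members and the gene lists were chosen with earlier results of these data known.

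Expected counts were rounded and fitted with edgeR 4.0.16 in R 4.3.3 (TMM, filterByExpr, 1 coefficient per tissue and genotype, quasi-likelihood test, Benjamini-Hochberg adjustment over all tested genes). SE of a fold change is the log2 fold change over the square root of F. Members were described by TPM with a pseudocount of 0.1. Annotation was matched by identifier for 25862 of 26759 genes, transcripts were aligned with Biopython 1.88, and shared windows of 50 bases were searched on both strands. Named genes are the members, the block genes, called genes of each list (at most 6 per list and tissue), *Peril*, *LacZ*, and the 5 most similar genes per member. *Hspa8*, *Gm6768* and the chromosome 5 window were added after values were seen.

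Alternatives were RLE factors, a filter at a sum above 1, DESeq2 1.42.0, each tissue alone, sex as a covariate in kidney, a replicate block in mESC, other count limits, a pseudocount of 1, CPM, copies summed (added after seeing the data), and each library left out. Counts of 2 libraries of a group always differed beyond sampling noise. Simulated data, in which 200 genes per tissue had been changed, were used to check the fit, which was tested before use. Before the change each simulated gene had 1 level in all tissues, its mean over the 16 libraries, scaled by depth. The shares below hold for that setting and need not hold for the real libraries, whose tissues differ. Of genes changed 1.5-fold, 61.2% were recovered in mESC, 56.7% in kidney and 49.3% in GE/OB. At 2-fold the shares were 70.1%, 77.6% and 59.7%, and at 4-fold 87.9%, 98.5% and 86.4%. False calls made up 3.9%, 4.3% and 6.5% of the calls, so a lack of calls in GE/OB can miss changes of these sizes. Figures were drawn with matplotlib 3.10.9 in Python 3.11.15 with pandas 2.3.3.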

Additional observations from a re-analysis of the deposited data

Results flagged for a closer look

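Some differences KO minus WT had opposite signs in different tissues, with every KO library on one side of every WT library in each of the tissues compared. These differences between tissues were not tested. On the log2(TPM + 0.1) scale, *Duxbl1* was higher in KO GE/OB (5.21) and lower in KO kidney (-1.75), 6.96 apart. Both WT GE/OB embryos had 0 counts of *Duxbl1*, so the sizes 5.21 and 6.96 depend on the 0.1 added to each TPM. *Tmem254a* and *Tmem254b*, which hold 1 measurement, were each higher in KO GE/OB (2.08) and lower in KO mESC (-0.35), 2.43 apart. *Ncoa4* was higher in KO GE/OB (1.48) and lower in KO mESC (-0.16), 1.64 apart, and summed with *Gm6768* its GE/OB groups overlapped. Of the block genes, *Duxbl3* was higher in KO GE/OB (1.46) and lower in KO mESC (-0.85), 2.31 apart, and lower in KO kidney (-0.91), 2.36 apart. *Tmem254c* was higher in KO GE/OB (1.15) and lower in KO mESC (-0.20), 1.35 apart. Males and females were split by genotype in GE/OB, and each genotype was 1 clone in mESC.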

How the results depend on the processing

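Fitting each tissue alone, the number of genes called KO against WT went from 1198 to 3561 in mESC, from 39 to 10 in kidney and from 11 to 6 in GE/OB, and with DESeq2 it went to 73 in kidney and 19 in GE/OB. Leaving out each library in turn gave 596 to 1435 in mESC, 20 to 77 in kidney and 2 to 7 in GE/OB. The block genes called in mESC (2) became 1 with DESeq2, 6 alone and 0 to 2 with a library left out. The iron genes in mESC (2) became 5 alone and 0 to 1 with a library left out, and in kidney (0) 1 at the looser filter, 2 with DESeq2 and 0 to 1. The autophagy genes in mESC (1) became 3 with DESeq2, 5 alone and 1 to 3, and nuclear receptor genes (3) 2 to 3. The chromosome 14 window in mESC (2 lower) became 6 with DESeq2 (4 higher and 2 lower). It became 12 with the tissue alone (5 higher and 7 lower) and 0 to 2 with a library left out. In kidney that window (1) became 0 alone and 0 to 1. The chromosome 5 window in mESC (1), whose alternatives were chosen after seeing the data, became 2 with DESeq2, 3 alone and 0 to 1. Well numbers in mESC did not pair the wells (same-number correlations of deviations 0.0055, 0.016 and 0.045). With the replicate block 914 genes were called, 0 of them iron genes, and no count of the other 6 lists and windows in mESC moved by over 1.5 times. Members not overlapping numbered 1 to 3 in kidney, 4 to 5 in mESC and 5 in GE/OB with a library left out, and 3 in GE/OB with the copies summed. Genes on and off within a tissue numbered 124 in mESC, 257 in kidney and 109 in GE/OB, 457, 764 and 296 with off under 3 counts, 14, 26 and 17 with on at 50 counts, and 78 to 113, 157 to 225 and 60 to 88 with a library left out. The sign turned in kidney for *Gm26825* without WT 1 (-2.98), KO 7 (-1.29) or KO 9 (-1.26), with a range of -2.98 to 3.29 over the libraries left out, and for *Ncoa4* without WT 1 (0.10) (range -0.33 to 0.10) or with the copies summed (0.056). Of the member differences, 102 values moved by less than 1 SD under an alternative, 18 moved by more and 5 turned sign. Causes were not tested, except that fewer libraries enter where one is left out.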
